A study of Mus musculus with 2 samples.

Results

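Molecular chaperones and heat shock proteins were described in the adrenal gland of the mouse, the organ whose cortex makes steroid hormones and whose medulla makes catecholamines. The members were chosen by name and by detection: protein-coding genes with at least 1 read in each library whose symbol starts with Hspa, Hspb, Hspd, Hspe, Hsph, Hsp90, Dnaja, Dnajb or Dnajc, the Cct genes, and Tcp1, Calr, Canx, Pdia3, Pdia4 and Pdia6. This gave 75 members of 13192 annotated genes read in both libraries, 12094 of them protein-coding. The glands came from male B6CASTF1/J mice, an F1 hybrid of B6 and CAST, aged 2 months. No treatment is named, and 2 libraries of long-read RNA sequencing, replicates 1 and 2, form a single group. The biosample labels give the animals different numbers and the library descriptions give both the same one, so separate animals are not shown and the spread between libraries may be technical. Every test below therefore compares 2 libraries and no biological conditions.

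Of 88 annotated protein-coding genes whose names follow the rule, 4 were read in 1 library only and 9 in neither. Just inside the rule lay Dnajc22, with 5 reads in replicate 1 and 1 in replicate 2, and Dnajb3, with 3 and 2. Just outside lay Hspb2 and Hspb7, each with 2 reads in replicate 1 and 0 in replicate 2, and Hspa1l and Dnajc6, each with 0 and 1. Cct6a, a subunit of the TRiC chaperonin with 182 and 134 reads, falls outside because the annotation types the gene as a processed transcript.

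Chaperones bind unfolded or partly folded proteins and keep them from aggregating. HSP70 proteins clamp onto exposed hydrophobic stretches in a cycle of ATP binding and hydrolysis that J-domain proteins of the DNAJ families start and HSP110 proteins reset by exchanging the nucleotide. HSP90 acts later and holds clients such as steroid hormone receptors in a ligand-ready state. Hspd1 and Hspe1 form the barrel and lid of the mitochondrial chaperonin, TRiC folds actin and tubulin in the cytosol, and the small heat shock proteins hold unfolded chains without ATP. In the endoplasmic reticulum (ER), the lectins Calr and Canx and the disulfide isomerases of the PDI family fold secreted and membrane proteins, among them the enzymes of steroid synthesis that sit in that membrane. Heat shock factor HSF1 drives cytosolic chaperone genes through heat shock elements, and ATF6 and XBP1 drive ER chaperone genes through ER stress response elements.

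Those 2 elements were searched in promoter sequence because they are already tied to chaperone genes. A higher share in the members than in all genes is therefore no independent result. The protein-coding genes set beside the members include them. RefSeq start-site windows on GRCm38.p6, from 250 bases before to 50 after the start, were matched for 62 of the 75 members. The 13 without a window were Hsp90ab1, Hsp90aa1, Hspa8, Hspa9, Hspa13, Cct4, Dnajc2, Dnajc5, Dnajc11, Dnajc12, Dnajc18, Dnajc22 and Dnajc30. The ER stress response element (ERSE, CCAAT and CCACG with 9 bases of any kind between them, on either strand) was found in 6 members, which is 9.68% of those matched, against 0.166% of 17491 protein-coding genes with a window. A gene counts once however many windows it has, and over single windows the share was 0.119% of 32851. All 6 belonged to the set of 13 ER members named below, of which 12 had a window. Each sequence below is read 5′ to 3′ on the strand of the gene, with the match in capitals.

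Hspa5, chr2:34772020-34772048, plus strand: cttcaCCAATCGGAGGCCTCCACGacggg
Hsp90b1, chr10:86705633-86705661, minus strand: caagcCCAATCGCAAGGAGCCACGcttcg
Hsp90b1, chr10:86705528-86705556, minus strand: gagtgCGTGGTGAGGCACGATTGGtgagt
Calr, chr8:84847070-84847098, minus strand: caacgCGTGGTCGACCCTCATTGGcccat
Canx, chr11:50325795-50325823, minus strand: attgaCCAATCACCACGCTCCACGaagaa
Pdia6, chr12:17266486-17266514, plus strand: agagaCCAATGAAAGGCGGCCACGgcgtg
Dnajc3, chr14:118937822-118937850, plus strand: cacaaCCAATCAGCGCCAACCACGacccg

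Hsp90b1, the ER member of the HSP90 family, held 2 matches in opposite orientations, and the match of Calr was in the reverse orientation. Every CCAAT of an ERSE is also a match to the shorter CCAAT box, which stood in 46.8% of the matched members and in 42.3% of protein-coding genes (37.4% of windows). A related element, ERSE-II (ATTGG and CCACG with 1 base of any kind between them, on either strand), was found in 1 member, Dnajb11, and in 0.0629% of protein-coding genes (0.0365% of windows). The TATA box (TATAAA) stood in 4 of the 62 members, or 6.45%, against 14.8% of protein-coding genes (13.6% of windows).

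The heat shock element (HSE, 3 blocks that alternate between GAA and TTC, each 2 bases apart, on either strand) was found in 4 members, Hspd1, Hspe1, Dnajb6 and Hsph1, or 6.45% of those matched, against 0.595% of protein-coding genes (0.603% of windows). Hspd1 and Hspe1 are transcribed away from each other, and the starts of their leading transcripts are 107 bases apart (chr1:55088025-55088131). A pair of overlapping HSEs, 18 bases in all, lies between them and is inside the window of both genes.

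Hspd1 and Hspe1, chr1:55088053-55088082, plus strand: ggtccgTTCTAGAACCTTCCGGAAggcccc
Dnajb6, chr5:29735844-29735872, plus strand: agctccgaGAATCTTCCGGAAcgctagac

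In Hsph1 the match lay 36 to 48 bases after the start. These matches are letters in a window and were not tested for binding, and a window without a match says only that those letters are not in it.

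**Figure D1:**
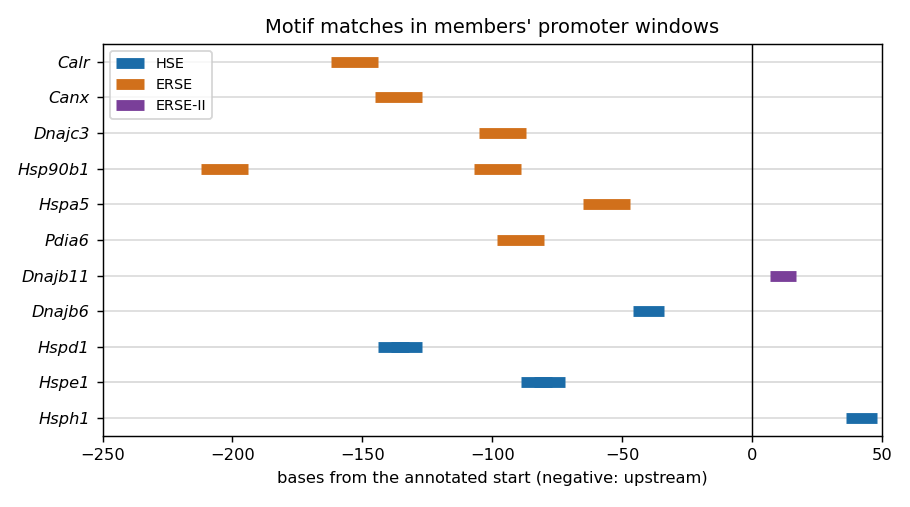
Position of each ERSE, ERSE-II and HSE match relative to the RefSeq start (horizontal axis, bases) for the members that hold one, 1 line per member. The ERSE matches of 6 ER members all lie upstream of the start, and the ERSE-II of Dnajb11 and the HSE of Hsph1 lie just after it.

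The members took 13641 of 824225 gene-assigned reads in replicate 1 and 11783 of 656826 in replicate 2. That was 1.66% (Wilson 95% interval 1.63 to 1.68) and 1.79% (1.76 to 1.83), or 1.72% ± 0.098 (SD, n = 2). Because a long read is counted once whatever its length, levels are given as CPM, without division by length. CPM are the reads of a gene scaled to a common library total. Intervals cover counting error only, since copies of a molecule made by PCR are not told apart. A count of 0 would allow up to 3.64 CPM in replicate 1 and 4.57 CPM in replicate 2. The 5 members with the highest mean exceeded 1000 CPM, another 30 stood between 100 and 1000, 12 between 50 and 100, and 28 below 50. The 5 most abundant members held 43.7% of the members' reads in replicate 1 and 45.7% in replicate 2.

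Lists of cell type markers were read beside the members, since the tissue is a mixture in which fewer cells of a type and less RNA per cell cannot be told apart. The 5 cortex markers summed to 6.47% of reads in replicate 1 and 6.77% in replicate 2, and the 5 chromaffin markers to 1.13% and 1.24%. The 9 adipocyte markers stood at 1.83% and 1.02%, and the 5 erythroid markers at 0.195% and 0.0819%, both higher in replicate 1. Connective tissue markers stood at 0.101% and 0.0652%, endothelial markers at 0.0563% and 0.0757%, and immune markers at 0.0724% and 0.0700%. The 6 muscle markers had 2 reads and 1 read in all, and Ptprc, Cd3e and Cd79a, which define leukocytes and lymphocytes, were at 0 in both libraries. Myh6, Myl2 and Mb were also at 0 in both. The libraries also differed by transcript length, as described below. With that trend removed, the median log2 ratio (replicate 2 over replicate 1) of the erythroid markers went from -1.39 to -0.75. That of the adipocyte markers went from -1.32 to -0.93, and that of the connective tissue markers from -0.65 to -0.81. The part of these marker differences in the library differences of the members was not tested.

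HSP90 genes were led by Hsp90ab1, the constitutive cytosolic form, which was the most abundant member (chr17:45567775-45573271, minus strand, mm10). It had 1763 and 1540 reads, or 2139 and 2345 CPM, a mean of 2242 ± 145 CPM (SD, n = 2) and rank 25 among all annotated genes. The stress-inducible form Hsp90aa1 was read at 354 and 312 CPM, so that Hsp90ab1 reads exceeded it 6.04-fold and 7.51-fold. The coding sequences of the pair are 75.6% identical. Hsp90b1, also named GRP94, which folds integrins and Toll-like receptors in the ER, stood between them at 499 and 493 CPM.

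HSP70 was the largest family by reads, with 0.357% of reads in replicate 1 and 0.455% in replicate 2. Hspa8, the constitutive cytosolic HSC70, had 1038 and 1114 reads, or 1259 and 1696 CPM. Hspa5, the ER form BiP that also restrains the sensors of the unfolded protein response, had 977 and 1331 CPM. Hspa9, or mortalin, which pulls precursors into mitochondria, had 1114 and 1148 CPM. The cytosol, ER and mitochondria were thus each served by an abundant HSP70 message. The other members of the family were far lower: the testis-enriched Hspa2 stood at 40.0 and 85.3 CPM, Hspa12a at 49.7 and 57.9, the ER-associated Hspa13 at 29.1 and 38.1, the ribosome-associated Hspa14 at 25.5 and 39.6, and Hspa12b at 6.07 and 15.2. The nucleotide exchange factors of the HSP110 group were modest, with Hspa4 at 116 and 129 CPM, Hsph1 at 110 and 131, and Hspa4l at 63.1 and 41.1.

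The heat-inducible pair Hspa1a and Hspa1b are single-exon neighbours on the minus strand of chromosome 17 (chr17:34969190-34972156 and chr17:34956436-34959238). Their coding sequences are 99.4% identical and their stretches after the stop codon 47.5%, so the split between the genes is uncertain. Hspa1b had 39 and 70 reads and Hspa1a 15 and 21. Their sum was 54 reads in replicate 1 and 91 in replicate 2, or 65.5 and 139 CPM. Hspa8 exceeded Hspa1b 26.6-fold and 15.9-fold by reads.

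J-domain proteins, which choose the substrate and start the HSP70 cycle, numbered 39 members and together took 0.281% and 0.306% of reads. HSP70 reads outnumbered them 1.27-fold and 1.49-fold. Dnaja3, the mitochondrial partner of Hspa9, led with 312 and 321 CPM, and Dnaja1, a cytosolic partner of Hspa8, followed with 268 and 333. Dnajc15, an inner-membrane protein of the mitochondrial import motor, had 246 and 154 CPM. The cytosolic Dnaja2 stood at 189 and 195 CPM, and the tetratricopeptide co-chaperone Dnajc7 at 148 and 204. Dnajc11, of the mitochondrial membrane, had 155 and 195 CPM, Dnajb2 108 and 186, and the ER cofactor Dnajb11 136 and 143. Dnajc14 had 123 and 142 CPM, the aggregation suppressor Dnajb6 130 and 134, the spliceosome-associated Dnajc8 108 and 97.4, and Dnajc3, an ER protein also known as P58IPK, 103 and 95.9. The remaining 27 J proteins had means from 3.34 to 86.2 CPM, and 21 of the 39 stayed below 50.

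The mitochondrial chaperonin barrel gene Hspd1 was the second most abundant member, with 1441 and 1099 reads, or 1748 and 1673 CPM. Its lid gene Hspe1, across the shared stretch printed above, had 540 and 212 reads, or 655 and 323 CPM. The ratio of Hspd1 to Hspe1 reads was 2.67 in replicate 1 and 5.18 in replicate 2. It is a ratio of reads, and their leading transcripts differ in length, at 2423 and 774 bases. By ratio, Hspe1 had the widest gap between the libraries among the members above 100 CPM. In CPM the gap of Hspa8, at 1259 and 1696, was wider. All 8 mitochondrial chaperones held 0.439% and 0.391% of reads.

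The TRiC ring is built of subunits in equal number, and 7 of its genes are members. Cct7 had 451 and 524 CPM and Cct5 463 and 454, so that Cct5 was highest in replicate 1 and Cct7 in replicate 2. Cct3 had 279 and 318 CPM, Cct4 229 and 257, Tcp1 243 and 221, Cct8 192 and 263, and Cct2 178 and 177. The messages of the ring were thus not equal: the highest exceeded the lowest 2.60-fold in replicate 1 and 2.97-fold in replicate 2. Cct6a, outside the rule, fell inside this range with 221 and 204 CPM. 

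Among ER folding proteins, Pdia3, which pairs with the lectins to form disulfides in glycoproteins, had 586 and 687 CPM. Canx, the membrane-bound lectin, had 338 and 437 CPM, and Calr, its soluble relative that also stores calcium, had 194 and 230. Canx reads exceeded those of Calr 1.74-fold and 1.90-fold. Pdia6 stood at 301 and 387 CPM and Pdia4 at 150 and 134. A set of 13 ER members together held 0.349% and 0.412% of reads. The set was Hspa5, Hspa13, Hsp90b1, Calr, Canx, Pdia3, Pdia4, Pdia6, Dnajb9, Dnajb11, Dnajc1, Dnajc3 and Dnajc10. Dnajb12, of the ER membrane, and ER folding genes outside the rule are not in it.

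Of the small heat shock proteins, Hspb8, which acts with Bag3 in selective autophagy, had 329 and 442 CPM, and Hspb1 (HSP27) had 431 and 260. Hspb6, a muscle-enriched relative, had 23.1 and 24.4 CPM. Hspb11, an intraflagellar transport protein that carries the name only, had 14.6 and 13.7. Another pair shares the prefix without being small heat shock proteins. Hspbp1, a nucleotide exchange factor of HSP70, stood at 75.2 and 50.2 CPM, and Hspbap1 at 13.3 and 6.09.

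**Figure D2:**
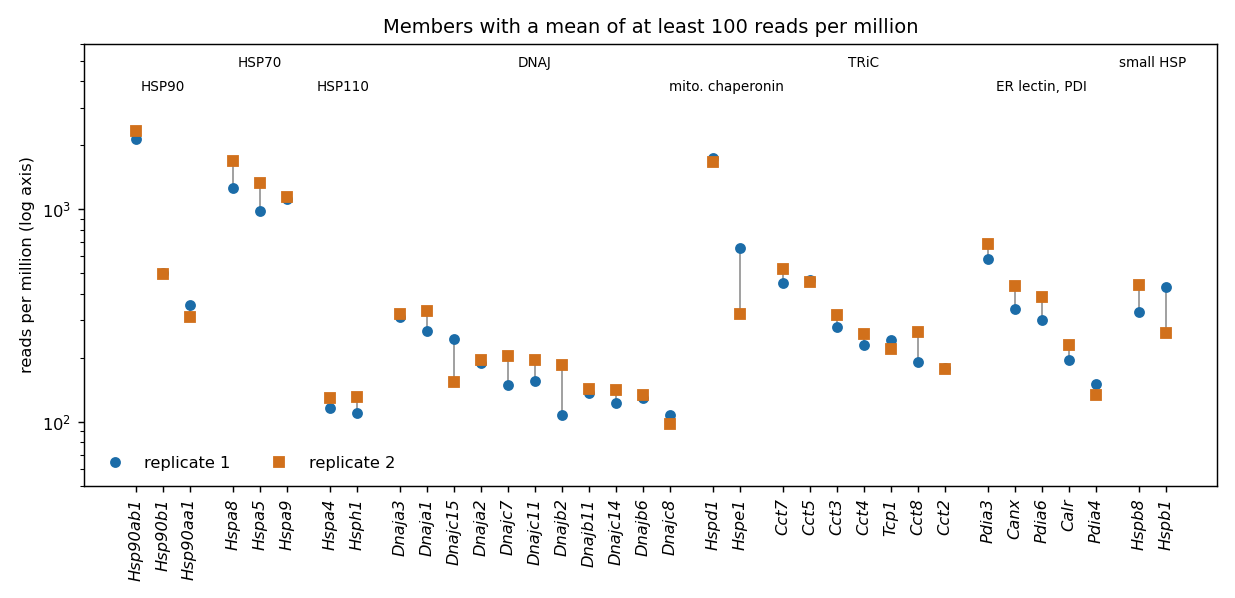
CPM (log axis) of each member with a mean of at least 100, grouped by family, with replicate 1 as circles and replicate 2 as squares joined by a line. Hsp90ab1, Hspd1, Hspa8, Hspa5 and Hspa9 exceed 1000, and the widest gap between the libraries by ratio is that of Hspe1.

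The libraries were compared gene by gene with a two-sided exact binomial test on reads, scaled by TMM and adjusted by Benjamini-Hochberg over the 8063 genes whose reads in both libraries summed to 20 or more. Over all genes, 3.41% passed both an adjusted p of 0.05 and a 2-fold ratio, and 11.1% passed the adjusted p alone. Of the 75 members, 63 could be tested and 12 had too few reads. Both thresholds were passed by 5 members and the adjusted p alone by 12, of which 7 were higher in replicate 2 (3.55% of all genes were) and 5 were higher in replicate 1 (7.53% of all genes were). Scaling by library totals turned that split into 11 against 4. The median log2 ratio, replicate 2 over replicate 1, was 0.065 over the members and 0.011 over all genes.

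Higher in replicate 1 were 5 members, 4 of which work in mitochondria. They are 4 of the 8 mitochondrial members tested, where 7.53% of all genes were past the adjusted p and higher in replicate 1. The median log2 ratio of the 8 was -0.11, and 2 of them were higher in replicate 2. Hspe1 was 2.17-fold higher there (adjusted p = 2.04e-21 by the exact binomial test). Dnajc19, a subunit of the mitochondrial import motor, had 102 reads in replicate 1 and 32 in replicate 2 and was 2.69-fold higher (adjusted p = 4.59e-06). Dnajc15, its relative in the same motor, was 1.71-fold higher with 203 and 101 reads (adjusted p = 1.60e-04), and Hspb1 1.77-fold with 355 and 171 reads (adjusted p = 1.64e-08). Hspd1 differed least, 1.12-fold (adjusted p = 0.044), and lost the adjusted p under library totals (0.58), with no filter on reads (0.088), without genomic-class reads (0.091) and with annotated reads only (0.32).

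Higher in replicate 2 were 7 members, among them 4 of the 9 tested HSP70 genes. Over all genes, 3.55% were past the adjusted p and higher in replicate 2. With the length trend described below removed, 2 HSP70 genes passed the adjusted p, where 5.84% of all genes did. Hspa8 was 1.26-fold higher (adjusted p = 4.47e-06) and Hspa5 1.27-fold (adjusted p = 2.83e-05). The heat-inducible Hspa1b was 2.08-fold higher (adjusted p = 0.0028), and Hspa2, with 33 and 56 reads, 1.96-fold (adjusted p = 0.022). The split of reads between Hspa1b and its neighbour Hspa1a is uncertain, as given above. Hspa1a, with 15 and 21 reads, did not pass the adjusted p, and the sum of the pair was not tested. Dnajb1, the heat-inducible partner of Hspa1b, had 28 and 49 reads and was 2.02-fold higher (adjusted p = 0.029). Dnajc5, the cysteine string protein of secretory vesicles, had 33 and 58 reads and was 2.03-fold higher (adjusted p = 0.013), and Dnajb2, with 89 and 122 reads, 1.60-fold (adjusted p = 0.0099). Hspa1b, Dnajc5 and Dnajb1 lie just past the 2-fold threshold, and with DESeq2 size factors Dnajc5 (log2 ratio 0.97) and Dnajb1 (0.96) fell short of it. Dnajc5 lost the adjusted p without genomic-class reads (adjusted p = 0.064) and with annotated reads only (0.19), and Dnajb1 lost it with no filter on reads (0.059). Dnajb2 lost it with annotated reads only (0.069). None of the 7 TRiC members passed the adjusted p, where 11.1% of all genes did, and a count of 0 among 7 lies near that share.

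Over all genes, the ratio between the libraries was lower for short transcripts, as the plot of ratio against length shows. The median log2 ratio was -0.25 over the 7 tested members whose leading transcript is under 1500 bases, 0.14 over 25 members from 1500 to under 2500 bases and 0.11 over 31 longer ones. Across the 63 members, which share both libraries, Spearman's rho with length was 0.075, a weak rank relation. That value covers the members only, and the trend over all genes reached longer transcripts too, as Hspa5 below shows. Of the members higher in replicate 1, Dnajc19 has a leading transcript of 659 bases, Hspe1 of 774 and Hspb1 of 903. With the trend over all genes taken out, 0 members were called and 1.64% of all genes were, while 7 members and 5.84% of genes passed the adjusted p alone. Those 7 were Hspd1, Hspa8, Hspe1, Hsp90aa1, Dnajc15, Dnajb2 and Hspa1b. The others had also passed before, while Hsp90aa1, with 292 and 205 reads, passed only with the trend removed. The log2 ratio of Hspe1 was then -0.54 in place of -1.12 (adjusted p = 9.98e-05 by the exact binomial test). Dnajc19 (adjusted p = 0.076) and Hspb1 (adjusted p = 0.16) no longer passed. Nor did Hspa5 (0.18), Hspa2 (0.064), Dnajb1 (0.11) and Dnajc5 (0.068), all higher in replicate 2. The log2 ratio of Hspa5, with a leading transcript of 3672 bases, went from 0.35 to 0.17. Hspd1 and Dnajc15 moved further from 0. The log2 ratio of Hspd1, with a leading transcript of 2423 bases, went from -0.16 to -0.24. That of Dnajc15, with one of 6193 bases, went from -0.78 to -0.93. These are lengths of annotated transcripts, and the lengths of the reads were not used.

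**Figure D3:**
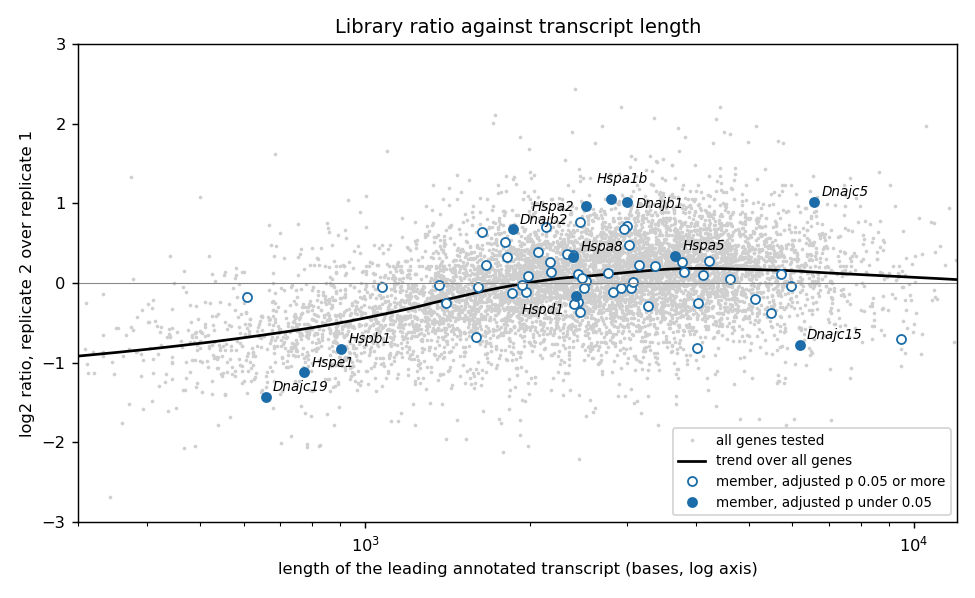
Log2 ratio of replicate 2 over replicate 1 (vertical axis) against the annotated length of the leading transcript (log axis, bases), with all tested genes in grey, their trend as a line and members as circles, filled where the adjusted p is under 0.05. Dnajc19, Hspe1 and Hspb1 lie at the short end, where the trend is below 0, and 33 genes, none of them a member, lie outside the axes.

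Genes that work with the chaperones were taken from a list of 73, of which 63 could be tested. The adjusted p was passed by 8 of the 63, where 11.1% of all genes passed. Of these 8, 6 were higher in replicate 2 and 2 were higher in replicate 1. Both thresholds were passed by 1, where 3.41% of all genes passed. That one was Ddit3, the stress-response factor CHOP, with 51 and 18 reads (log2 ratio -1.24, adjusted p = 0.013 by the exact binomial test). It lost its call with the length trend removed (adjusted p = 0.36). The median log2 ratio of the 63 was -0.0074. The list's regulators were Hsf1, the activator of heat shock genes, at 47.3 and 51.8 CPM, its binding protein Hsbp1 at 232 and 187, Bag3 at 116 and 172 and Chordc1 at 54.6 and 63.9. The HSP90 co-chaperones were led by Fkbp4, which binds steroid receptor complexes, at 392 and 463 CPM. Cdc37, which brings kinases to HSP90, had 289 and 306, Stip1, the bridge between HSP70 and HSP90, 183 and 225, and Ptges3 (p23) 161 and 163. None of these 8 passed the adjusted p.

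Of the HSP70 cofactors, Stub1, a ubiquitin ligase, had 374 and 448 CPM, Bag1 314 and 262, and Hyou1, an exchange factor of the ER, 160 and 234. Grpel1, the exchange factor of Hspa9, had 312 and 164 reads, or 379 and 250 CPM. It was higher in replicate 1 (log2 ratio -0.70, adjusted p = 9.72e-06 by the exact binomial test). In the ER the isomerase P4hb stood at 935 and 1248 CPM, above every PDI member, followed by Txndc5 at 420 and 565, the collagen chaperone Serpinh1 at 388 and 455, and Prkcsh at 171 and 231. Of the unfolded protein response regulators, Xbp1 had 284 and 429 CPM, Herpud1 208 and 245, Atf6b 124 and 167, and Ppp1r15a 81.3 and 105. Higher in replicate 2 by the adjusted p were P4hb, Txndc5, Xbp1, Lonp1, Unc45a and Bag6, with log2 ratios from 0.29 to 0.66. Of these 6, Xbp1 alone still passed with the length trend removed (adjusted p = 0.0089), and Unc45a and Txndc5 also lost it with DESeq2 size factors (0.075 and 0.082) and with no filter on reads (0.089 and 0.054), and Unc45a with annotated reads only (0.38).

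The mitochondrial protease Lonp1, which degrades misfolded matrix proteins, had 1591 and 2084 CPM, between Hspd1 and Hsp90ab1 by mean. Trap1, the mitochondrial HSP90, had 250 and 253 CPM, and the proteases Afg3l2 and Spg7 had 194 and 210 and 130 and 172. The small relative Cryab had 25.5 and 22.8 CPM and the disaggregase Clpb 180 and 187. Prefoldin was led by Pfdn5 at 159 and 129 CPM, Pfdn2 at 112 and 74.6, Vbp1 at 66.7 and 59.4 and Pfdn1 at 75.2 and 50.2. The 5 tested prefoldin genes, whose product delivers chains to TRiC, had a median log2 ratio of -0.65, which was -0.14 with the length trend removed. None of the 5 passed the adjusted p, where 11.1% of all genes did.

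How completely the members were read was described with TALON classes, which compare each read with the annotation. Reads that match an annotated transcript made up 90.5% of the members' reads in replicate 1 and 90.9% in replicate 2, against 79.4% and 79.0% over all protein-coding genes. Incomplete splice matches made up 4.68% and 4.12%, against 8.53% and 8.42%. New pairings of annotated splice sites made up 1.74% and 2.09%, against 4.02% and 5.37%, and new splice sites 1.42% and 1.82%, against 3.44% and 4.01%. Reads of TALON's genomic class, which overlap a gene without its splice pattern, made up 1.69% and 1.08%, against 4.61% and 3.22%. Within each library the members were above all protein-coding genes in annotated reads and below them in every other class, and the gap between the sets was wider than that between the libraries. Annotated transcripts that encode no full protein (nonsense-mediated decay, retained intron or processed transcript) took 48 reads, or 0.352%, in replicate 1 and 36, or 0.306%, in replicate 2, against 1.17% and 1.15%. These are shares of reads, so the abundant members weigh most, and no test was run between the sets.

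**Figure D4:**
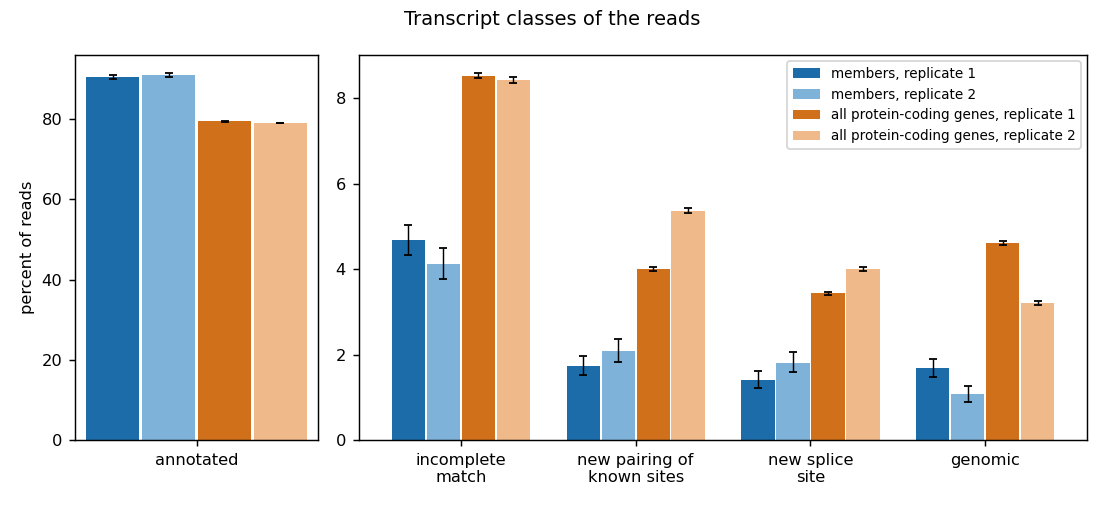
Percent of reads in each transcript class for the members (blue) and all protein-coding genes (orange), 1 bar per library with Wilson 95% intervals, the annotated class on its own axis at the left. The left and right panels have different vertical scales, and annotated reads stand at 90.5% and 90.9% in the members against 79.4% and 79.0%.

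Reads that match only the downstream part of a transcript took a larger share in members with longer transcripts. They made up 0.961% and 0.759% of reads where the leading transcript is under 1500 bases, 3.23% and 2.73% from 1500 to under 2500 bases, and 4.34% and 3.57% above that. Hsp90b1, with 18 exons, had 8.03% and 4.32%, and Pdia3 0.828% and 1.33%. Not every gene was well matched: Hsp90aa1 reached only 76.4% and 78.0% annotated reads, and 22.6% of its reads in replicate 1 were incomplete matches. Of the 53 members with 20 or more reads in replicate 1 and in replicate 2, the lowest was Hspbp1, with 29.5% annotated reads over both libraries.

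In 25 of the 53 members with at least 20 reads in each library, or 47.2%, the dominant transcript held at least 90% of the reads, against 24.7% of all genes. The median share of the dominant transcript was 88.9% over the members and 79.2% over all genes. Hspa8 (95.4% and 95.1%), Pdia3 (95.9% and 96.0%) and Cct3 (96.1% and 96.2%) were of this kind. Between the libraries, 0 of 53 members passed the adjusted p of a two-sided Fisher's exact test on the dominant share, where 0.825% of all genes passed, and 0.675% with a difference of at least 10 points. At an unadjusted p under 0.05 there were 2, Hsp90ab1 and Cct4.

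Only 3 of the 37 members with at least 50 reads in each library had a dominant transcript under 60%, against 20.0% of such genes. All 3 are J proteins of class B, Dnajb6, Dnajb2 and Dnajb12, and their forms share a start codon and part at the coding end. Dnaja3 and Dnajc5 showed the same arrangement. Dnaja3 had a dominant share of 74.7% and 74.9% and Dnajc5 too few reads for that count, and both were chosen after their values were seen. The coding ends are printed because they show what the choice of form does to the message. Each is the coding sequence found in that form and not in the other, followed by its stop codon in capitals (mm10, plus strand). The 401 bases of Dnajb6-201 are not printed.

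Dnajb6-203, chr5:29766396-29766427: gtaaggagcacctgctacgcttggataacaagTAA
Dnajb2-207, chr1:75244794-75244801: atgtgttcTGA
Dnajb2-210, chr1:75243662-75243810: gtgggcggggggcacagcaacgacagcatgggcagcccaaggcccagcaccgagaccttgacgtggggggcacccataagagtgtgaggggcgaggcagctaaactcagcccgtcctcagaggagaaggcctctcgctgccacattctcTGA
Dnajb12-204, chr10:59896448-59896468: gtgcaggcctccctgcatggaTAG
Dnajb12-205, chr10:59897491-59897517: actatgaaatccctggagaatttttggTGA
Dnaja3-202, chr16:4706568-4706587: gaaagcggtcaactggaaacTAA
Dnaja3-201, chr16:4705844-4705944: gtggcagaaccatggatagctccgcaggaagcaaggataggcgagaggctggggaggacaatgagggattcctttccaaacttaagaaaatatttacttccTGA
Dnajc5-201, chr2:181549273-181549373: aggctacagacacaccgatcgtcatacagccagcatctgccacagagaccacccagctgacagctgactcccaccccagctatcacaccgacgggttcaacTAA
Dnajc5-204, chr2:181548926-181548933: gagggcacTGA

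In Dnajb6, the short form Dnajb6-203 reads on into the intron at the last shared exon and ends after 32 further bases, which gives 242 codons. The long form Dnajb6-201 splices that intron out, adds 401 coding bases in 2 more exons and reaches 365 codons. The short form held 60 of 107 reads in replicate 1 and 48 of 88 in replicate 2, and the long form 28 and 25. Among reads of these forms the long one took 31.8% (Wilson 95% interval 23.0 to 42.1) and 34.2% (24.4 to 45.7).

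In Dnajb2, a J protein that carries client proteins to the proteasome, Dnajb2-207 splices out an intron of 1132 bases (chr1:75243662-75244793) that Dnajb2-210 keeps, and the kept stretch codes for 49 whole codons before a stop. The forms have 277 and 324 codons. Dnajb2-207, with Dnajb2-202 and Dnajb2-208 of the same coding sequence, had 33 and 44 reads and Dnajb2-210 had 27 and 35. The share of the longer protein form was 45.0% (33.1 to 57.5) in replicate 1 and 44.3% (33.9 to 55.3) in replicate 2, although the gene itself was 1.60-fold higher in replicate 2.

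In Dnajb12, a J protein of the ER membrane, Dnajb12-204, Dnajb12-201 and Dnajb12-203 have the same 376 codons and had 44 reads in replicate 1 and 41 in replicate 2. Dnajb12-205, with 378 codons and another last coding exon, had 15 and 11. Its share was 25.4% (16.1 to 37.8) and 21.2% (12.2 to 34.0). In Dnaja3, the form Dnaja3-202 of 453 codons had 192 and 158 reads, and Dnaja3-201, which has an extra exon that holds 101 coding bases and 480 codons in all, had 42 and 32. The share of Dnaja3-201 was 17.9% (13.6 to 23.4) and 16.8% (12.2 to 22.8), or 17.4% ± 0.782 (SD, n = 2).

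In Dnajc5, the annotated decay form Dnajc5-204 includes an exon that brings a stop after 8 bases, so that 167 codons remain of the 198 of Dnajc5-201 and the last 101 coding bases are lost. It had 11 reads in each library, against 13 and 24 of Dnajc5-201 and Dnajc5-203, which encode the same protein, and its share was 45.8% (27.9 to 64.9) and 31.4% (18.6 to 48.0). The intervals of the libraries overlapped for all 5 genes.

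Hspa5 also used a pair of forms, but outside the coding sequence. Hspa5-201 splices out an intron of 82 bases (chr2:34772147-34772228) upstream of the start codon at position 34772322, and Hspa5-202 keeps it, while both encode the same 655 codons. Hspa5-201 had 591 and 646 reads and Hspa5-202 180 and 199. The share of Hspa5-202 was 23.3% (20.5 to 26.5) and 23.6% (20.8 to 26.5), a difference smaller than either interval. The ERSE printed above lies inside the annotated first exon of Hspa5-201 and upstream of the annotated start of Hspa5-202.

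**Figure D5:**
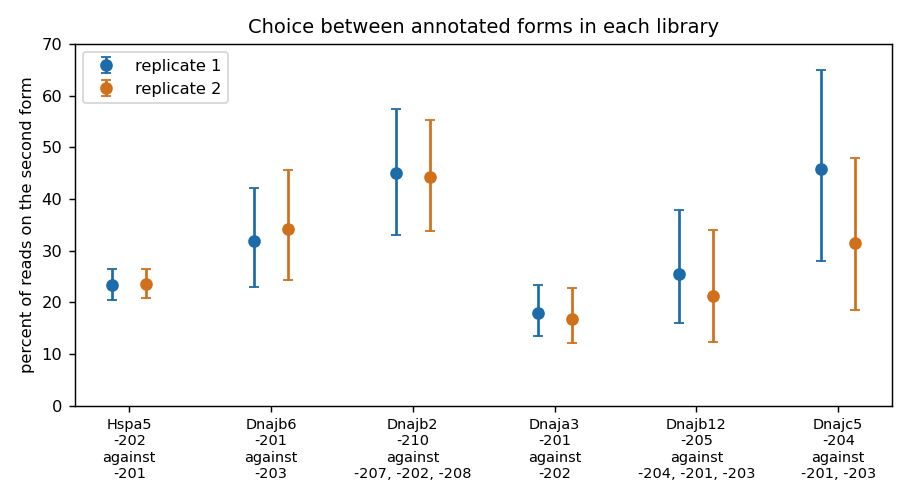
Percent of reads on the second of the named annotated forms, among reads of those forms, in each library with Wilson 95% intervals. Replicates 1 and 2 overlap in all 6 genes, and the lowest shares are those of Dnaja3-201, at 17.9% and 16.8%.

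New spliced forms of members, matched between the libraries by their introns, numbered 61 in 32 members, out of 226 in replicate 1 and 281 in replicate 2. Only 5 had at least 5 reads in each. The most abundant was a form of Hspd1 with 70 and 45 reads, 4.86% and 4.09% of the gene. Its first intron (chr1:55086942-55087988) is 1047 bases long, where that of Hspd1-201 is 837, and it is annotated in another Hspd1 transcript that had no reads of its own. A form of Canx with a donor site not in the annotation had 10 and 12 reads, or 3.58% and 4.18%, and one of Cct5 had 8 in each.

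Hspbp1 was the 1 member whose dominant form over both libraries is not annotated, where 6.90% of all genes are of this kind. Its 2 leading new forms had 20 and 9 reads and 14 and 7, against 16 and 12 for Hspbp1-201. The first new form led in replicate 1, with 32.3% against 25.8% of reads. Hspbp1-201 led in replicate 2, with 36.4% against 27.3%, so the lead over both libraries is a near tie. The first new form differs from Hspbp1-201 in its first intron, chr7:4684567-4684893 in place of chr7:4684570-4684893, an acceptor 3 bases away. The remaining 5 of the 10 most abundant were forms of Dnajc7, Dnaja1, Dnajc4, Pdia3 and Dnajc17 with 2 to 6 reads in each library.

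Gene bodies of 39 members overlap another annotated gene, and 5 of them overlap a protein-coding gene on the same strand: Dnaja3, Dnajc14, Hspa14, Dnajc25 and Hspa12b. Their counts are uncertain to that extent, and whether counting used the strand is not stated in the labels or headers.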

How the data were processed

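Long-read RNA was read in 2 adrenal gland libraries of 1 group. The authors deposited raw counts of reads per transcript model, not normalized, with model lengths, per the file headers. The models are TALON's on mm10, per the file headers and notes. No aligner or tool version is stated in the sources read. Counts were summed per annotated gene (GENCODE M21), without ERCC spike-ins (0.691% and 0.779% of reads), to 824225 and 656826 reads. TMM factors came from edgeR 4.0.16 in R 4.3.3; its quasi-likelihood test could not be fitted without a second group. Ratios have 1 CPM added. Exact binomial and Fisher's exact tests ran in scipy 1.17.1 under Python 3.11.15, and DESeq2 1.42.0 gave other size factors. Both tests were tested on simulated data. The length trend is a lowess curve with span 0.3.

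Named are whole small families, the most abundant HSPA, HSPB and J proteins, members past an adjusted p, members with a dominant form under 60%, the 10 most abundant new forms, and of each partner list the 4 most abundant genes and those called. The members and lists were chosen with earlier results of these data known.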

Additional observations from a re-analysis of the deposited data

Results flagged for a closer look

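Reads on new loci antisense to members lay outside the main counts. They numbered 69 in replicate 1 and 65 in replicate 2, opposite 37 members. Opposite 4 members they exceeded, in both libraries, the 3 reads that a count of 0 allows. Canx had 8 antisense reads in replicate 1 and 6 in replicate 2. Pdia3 had 4 and 7, Hspa4 had 5 and 4, and Hsp90b1 had 4 and 4. Catsper2 overlaps Pdia3 and a pseudogene overlaps Hsp90b1 on the opposite strand.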

How the results depend on the processing

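No paired analysis was possible because the 2 libraries form a single group. The 5 calls among 63 tested members became 12 with the adjusted p alone, 3 with DESeq2 size factors (Dnajc5 and Dnajb1 fell under 2-fold) and 0 with the length trend removed. Of all 8063 genes tested, 275 were called and 893 passed the adjusted p alone. The calls over all genes numbered 304 with DESeq2 size factors and 132 with the length trend removed. Of the 63 tested pathway genes, 1 was called, where 3.41% of all genes were. By the adjusted p alone 8 passed, where 11.1% of all genes did. Removing the length trend left 0 pathway genes called, where 1.64% of all genes were. With library totals, no filter, at least 50 reads, without genomic reads or with Known reads only, member calls numbered 4 to 6. Over all genes, in the same order, the calls were 259 of 8063, 237 of 16457, 220 of 5145, 290 of 7830 and 239 of 6605. The 0 differences in dominant transcript stayed 0 under every alternative tried. No single gene past the adjusted p reversed under any of them. The share of reads taken by members ran from 1.66% to 1.79% over single libraries and was 2.03% among Known reads. The annotated share ran from 90.5% to 90.9% over single libraries. Members with 1 major transcript numbered 25 to 26 over single libraries, 44 with Known reads only and 40 at an 80% threshold. The share on non-coding biotypes ran from 0.306% to 0.352%, and was 0.363% of Known reads. The quasi-likelihood test of edgeR could not be fitted. Depth limits the form shares: the interval of Dnajc5-204 in replicate 1 ran from 27.9% to 64.9%.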
